A study of Mus musculus with 15 samples.

Results

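The 9 genes described here, *Rsad2*, *Cmpk2*, *Mx1*, *Mx2*, *Rtp4*, *Ifi44*, *Xaf1*, *Ifi35* and *Apol7a*, encode antiviral effectors and other proteins induced by interferon. They were taken by symbol from a count table of 55487 genes, and all 9 were found. The set had been chosen from interferon-related genes with the differences of these libraries already known. Their levels and their differences from WT are therefore given as a description, without a test.

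The libraries were made from skin of 3-week-old C57BL/6 mice. OTULIN is a deubiquitinase that takes apart linear ubiquitin chains, and OTULIN E-KO mice lack it in keratinocytes because they carry Otulin fl/fl alleles and a K14-Cre transgene, driven by the keratin 14 promoter. Fibroblasts, endothelial cells and leukocytes of the same sample are not targeted by this Cre. WT libraries (n = 5, replicates 1, 4, 7, 10 and 13) came from littermates with Otulin fl/fl alleles and no Cre, so floxed alleles were common to all groups. Libraries of OTULIN E-KO skin were labelled non-lesional (n = 5, replicates 3, 6, 9, 12 and 15) or lesional (n = 5, replicates 2, 5, 8, 11 and 14). The study describes the profiles within a group as those of individual mice of this age. The sources used here do not state whether lesional and non-lesional libraries share mice, and the p-values below treat all libraries as independent.

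Type I interferons bind a receptor at the cell surface and act through JAK kinases and transcription factors that bind interferon-stimulated response elements near their target genes. Many products of these targets limit a step in the life cycle of viruses, and in skin the pathway is known for its activity in viral infection and in cutaneous lupus. Keratinocytes can themselves produce interferon kappa.

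QuantSeq reads the 3′ end of each polyadenylated transcript, so CPM, which are counts scaled to a common library size, need no division by transcript length. Library totals ran from 1962604 to 2567138 counts, and 1 count corresponded to 0.376 to 0.514 CPM. All CPM below were scaled with TMM, a method that corrects library totals for differences in composition. *Otulin* itself had 12.2 to 28.3 CPM in WT, 21.3 to 30.7 CPM in non-lesional and 19.0 to 27.2 CPM in lesional libraries, with log2 fold changes against WT of 0.18 ± 0.20 (SE) and 0.10 ± 0.22 (SE). The sources used here do not name the floxed exons, and a 3′ count outside them would not register the deletion, so this gene does not check the labels. All 10 keratinocyte markers examined were detected, with a summed level of 12988 to 19846 CPM per library. Lesional replicates 2 and 11 stood apart from the other lesional libraries. *Krt6b*, a keratin of hyperplastic epidermis, reached 3522 and 8664 CPM there and 1.201 to 4.86 CPM in lesional replicates 5, 8 and 14. *S100a8*, a calgranulin of neutrophils and inflamed epidermis, reached 1278 and 2389 CPM there and 2.40 to 4.62 CPM in the other lesional libraries. Non-lesional replicate 3 held 220 CPM of *Krt6b* and 116 CPM of *S100a8*, above every other non-lesional library. In bulk skin, fewer cells of a type and less RNA per cell cannot be told apart.

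The summed level of the 9 genes was lowest in WT skin. It was 58.0, 44.6, 34.5, 36.3 and 50.4 CPM in WT replicates 1, 4, 7, 10 and 13. In non-lesional replicates 3, 6, 9, 12 and 15 the sum was 130, 61.7, 52.8, 137 and 111 CPM, and in lesional replicates 2, 5, 8, 11 and 14 it was 286, 55.0, 65.7, 709 and 101 CPM. The means were 44.8 ± 9.78, 98.6 ± 39.1 and 243 ± 277 CPM (SD, n = 5 each). Non-lesional replicates 3, 12 and 15 and lesional replicates 2, 11 and 14 lay well above WT, non-lesional replicate 6 and lesional replicate 8 lay just above the highest WT library, and non-lesional replicate 9 and lesional replicate 5 lay inside the WT range. Expressed relative to the WT mean, non-lesional libraries reached 1.18-fold to 3.07-fold and lesional libraries 1.23-fold to 15.8-fold. The number of genes that exceeded every WT library was 8, 3, 3, 7 and 6 of 9 in the non-lesional libraries and 8, 3, 3, 9 and 6 of 9 in the lesional libraries, in the replicate order above. Over 13461 genes that passed the filter on low counts across all libraries, the share above every WT library was 14.3% to 15.1% in the non-lesional libraries, and in lesional replicates 2, 5, 8, 11 and 14 it was 20.8%, 15.9%, 13%, 28.9% and 23.5%.

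**Figure D1:**
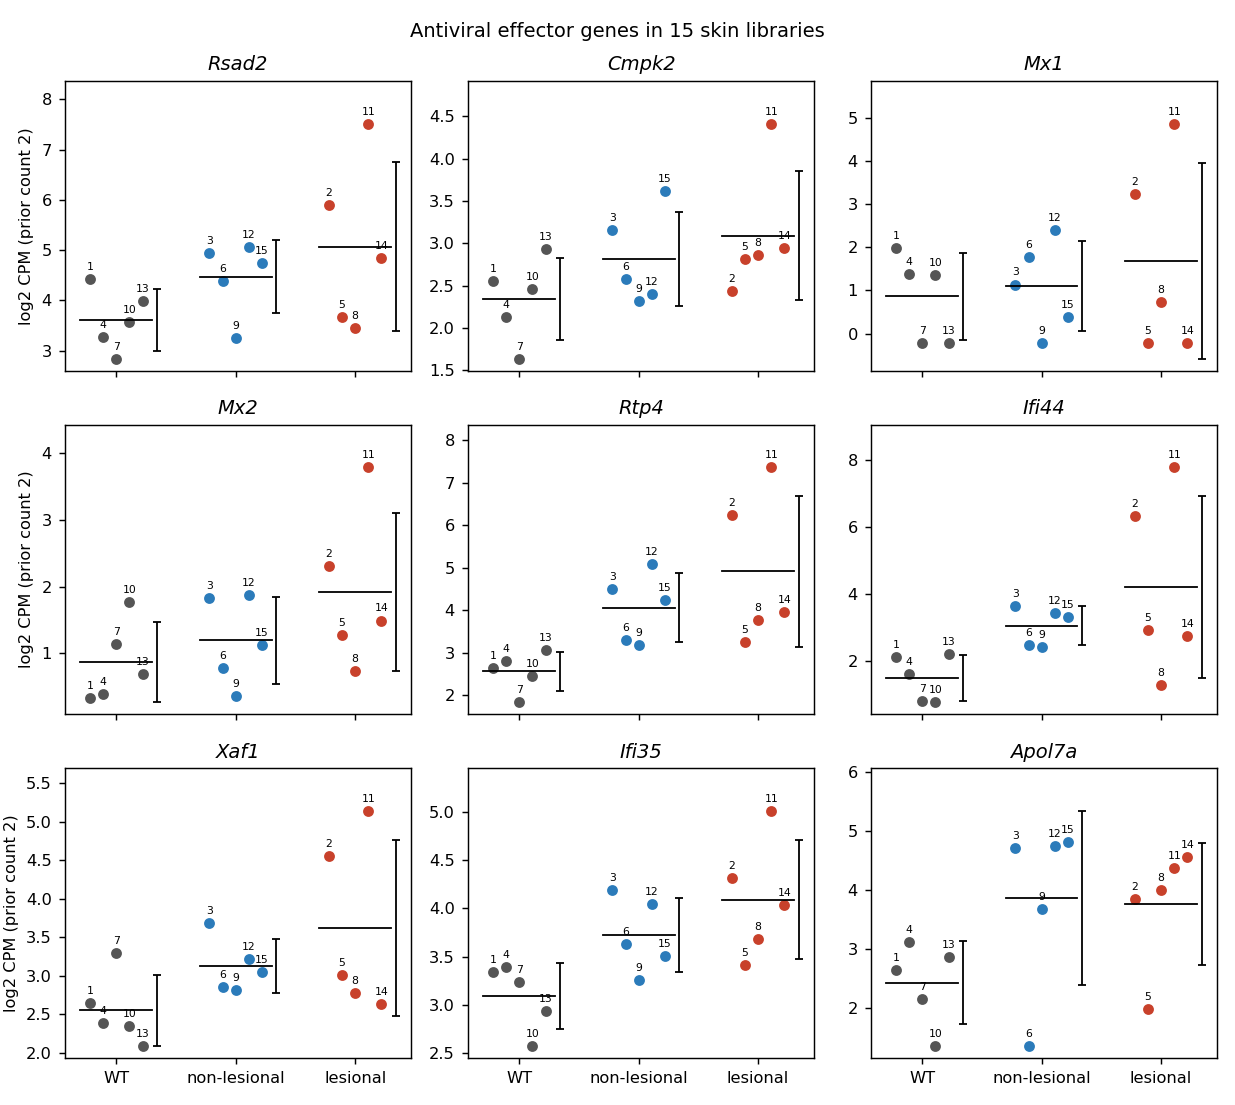
Level of each gene in the 15 skin libraries on the log2 CPM scale with a prior count of 2, 1 panel per gene, with points numbered by replicate. Horizontal lines are group means and error bars are SD (n = 5); lesional replicate 11 is the highest library for 8 of the 9 genes, and *Apol7a* is highest in non-lesional replicate 15.

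*Rsad2* (ENSMUSG00000020641) encodes viperin, a radical SAM enzyme that makes a chain-terminating analogue of CTP and so blocks viral polymerases. It had the highest WT level of the 9 genes, with 20.5, 8.74, 6.28, 10.98 and 15.04 CPM in WT replicates 1, 4, 7, 10 and 13. In non-lesional replicates 3, 6, 9, 12 and 15 it had 29.8, 19.99, 8.66, 32.4 and 25.8 CPM, and in lesional replicates 2, 5, 8, 11 and 14 it had 58.8, 11.8, 10.01, 182 and 27.7 CPM. Non-lesional replicates 3, 12 and 15 exceeded every WT library, and replicates 6 and 9 lay within the WT range. Its log2 fold change against WT was 0.90 ± 0.35 (SE) in non-lesional and 2.23 ± 0.80 (SE) in lesional skin.

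*Cmpk2* (ENSMUSG00000020638) encodes a mitochondrial nucleoside monophosphate kinase and is the chromosomal neighbour of *Rsad2*. In GRCm38, *Rsad2* occupies chr12:26442746-26456452 on the minus strand and *Cmpk2* chr12:26469204-26479837 on the plus strand, so that the genes point away from each other. Their starts are 12.8 kb apart with 0 protein-coding genes between them. The promoter windows of both genes, 250 bases before to 50 bases after the start, are shown because the neighbours differed in level across the same libraries. They are RefSeq sequences of GRCm38.p6, each read along the strand of its gene, from chr12:26456403-26456702 and chr12:26468965-26469264. Capitals mark the core of an interferon-stimulated response element, found by a search of both strands for GAAA, any 2 bases, then GAAA, and read here as its reverse complement.
Rsad2: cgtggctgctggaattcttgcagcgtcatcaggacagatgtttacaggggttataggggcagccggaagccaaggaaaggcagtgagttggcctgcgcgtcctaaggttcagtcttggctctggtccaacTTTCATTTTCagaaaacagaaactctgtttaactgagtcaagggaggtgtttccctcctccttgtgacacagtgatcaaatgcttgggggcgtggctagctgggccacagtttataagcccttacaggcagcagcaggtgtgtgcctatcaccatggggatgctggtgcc
Cmpk2: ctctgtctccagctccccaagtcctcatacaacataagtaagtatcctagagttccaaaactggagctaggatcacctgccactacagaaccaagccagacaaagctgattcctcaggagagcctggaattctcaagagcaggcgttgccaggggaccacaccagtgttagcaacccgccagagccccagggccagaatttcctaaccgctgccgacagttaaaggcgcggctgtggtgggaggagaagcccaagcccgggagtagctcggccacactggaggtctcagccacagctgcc
The match in the *Rsad2* window lay on the opposite strand at positions -120 to -111, where the start is position 1, and these letters were not in the *Cmpk2* window. Whether the match has a part in the levels of either gene was not tested. The motif was found in 1 of the 6 member genes with a window (*Rsad2*, *Cmpk2*, *Ifi44*, *Xaf1*, *Ifi35* and *Apol7a*) and in 3.44% of 32851 mouse promoter windows of the same length. Only this exact string was searched for, so a window without it may still hold another form of the element.

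*Cmpk2* had 5.03, 3.50, 2.24, 4.65 and 6.77 CPM in the WT libraries, 8.02, 5.10, 4.12, 4.41 and 11.4 CPM in the non-lesional libraries, and 4.53, 6.16, 6.41, 20.4 and 6.81 CPM in the lesional libraries. Only non-lesional replicates 3 and 15 and lesional replicates 11 and 14 exceeded every WT library. Its log2 fold change against WT was 0.54 ± 0.36 (SE) in non-lesional and 0.97 ± 0.44 (SE) in lesional skin, in each case the smallest among the genes tested. The neighbours diverged most in lesional replicate 2, where *Rsad2* was above all WT libraries at 58.8 CPM and *Cmpk2*, at 4.53 CPM from 10 counts, was inside the WT range. The ratio of *Rsad2* to *Cmpk2* was 2.22 to 4.08 in WT libraries, 2.1 to 7.36 in non-lesional libraries, and 13, 1.92, 1.56, 8.93 and 4.07 in lesional replicates 2, 5, 8, 11 and 14. The ratio was thus above the WT range in non-lesional replicate 12 and in lesional replicates 2 and 11, and below it in non-lesional replicate 9 and lesional replicates 5 and 8. Except in lesional replicate 11, *Cmpk2* had only 10 to 16 counts in these libraries. The counting error of the ratio was not computed, so nothing is read from small departures from the WT range.

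*Mx1* and *Mx2* encode dynamin-like GTPases that trap viral nucleocapsids. In C57BL/6 and many other laboratory strains the *Mx1* gene carries a deletion and gives no functional protein, and the annotation types *Mx2* as a polymorphic pseudogene. They lie at chr16:97447035-97462907 on the minus strand (*Mx1*, ENSMUSG00000000386) and chr16:97535308-97560900 on the plus strand (*Mx2*, ENSMUSG00000023341), with starts 72.4 kb apart and 1 protein-coding gene between them. Neither passed the filter on low counts in any comparison, and their counts are therefore given as observed. *Mx1* had 8, 4, 0, 4 and 0 counts in the WT libraries, 3, 6, 0, 11 and 1 in the non-lesional libraries, and 19, 0, 2, 57 and 0 in the lesional libraries. The libraries at 0 allow up to 3 counts, a one-sided 95% limit, which is 1.13 to 1.54 CPM depending on the library. Lesional replicates 2 and 11 held 97.9% of the lesional *Mx1* CPM, at 8.60 CPM (exact 95% Poisson interval 5.18 to 13.4) and 28.4 CPM (21.5 to 36.7). The highest non-lesional value, 4.41 CPM in replicate 12 (2.20 to 7.88), had an interval that overlapped that of lesional replicate 2 and not that of replicate 11. These intervals cover counting error only. *Mx2* had 1, 1, 3, 6 and 2 counts in the WT libraries, 6, 2, 1, 7 and 3 in the non-lesional libraries, and 9, 3, 2, 26 and 4 in the lesional libraries. Without the filter, which lets genes with very few counts into the fit, the log2 fold changes of *Mx1* and *Mx2* were 0.41 ± 0.65 and 0.55 ± 0.70 (SE) in non-lesional and 2.47 ± 1.47 and 1.92 ± 0.69 (SE) in lesional skin against WT.

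*Rtp4* (ENSMUSG00000033355, chr16:23520291-23614222, plus strand) encodes a receptor transporter protein that escorts some G protein-coupled receptors to the cell surface and is induced by interferon. It had 5.41, 6.12, 2.69, 4.65 and 7.52 CPM in WT replicates 1, 4, 7, 10 and 13. In the non-lesional libraries the level was 21.8, 8.93, 8.25, 33.2 and 17.9 CPM, and in the lesional libraries 74.7, 8.73, 12.8, 163 and 14.6 CPM. All 5 non-lesional and all 5 lesional libraries lay above all 5 WT libraries, although the lowest of each, at 8.25 and 8.73 CPM, was close to the highest WT value of 7.52 CPM. Relative to WT, it had a log2 fold change of 1.75 ± 0.38 (SE) in non-lesional and 3.36 ± 0.88 (SE) in lesional skin. Exons of *Rtp4* share 296 of 2131 bases with *Gm45338*, a non-coding gene on the same strand. Reads on shared bases were counted for both genes, and *Gm45338* had 2 to 11 counts per library, against 6 to 328 for *Rtp4*.

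*Ifi44* (ENSMUSG00000028037, chr3:151730922-151749960, minus strand) encodes a cytoplasmic protein that is induced by interferon and used as a marker of the response in blood and tissue. It was scarce in WT skin, with 3.48, 2.19, 0.897, 0.845 and 3.76 CPM from 2 to 10 counts. The non-lesional libraries had 11.6, 4.68, 4.54, 10.01 and 9.19 CPM, all above every WT library. In lesional skin it had 79.6, 6.68, 1.60, 216 and 5.84 CPM, so that it was the highest of the 9 genes in lesional replicates 2 and 11 and within the WT range in lesional replicate 8. The log2 fold change in non-lesional skin was 1.78 ± 0.42 (SE). Against WT in lesional skin *Ifi44* was removed by the filter, since fewer libraries than a group holds reached its minimum count, and without the filter its log2 fold change was 4.74 ± 1.48 (SE). *Ifi44* took 2.33% to 7.46% of the summed CPM of the 9 genes in WT libraries, 7.29% to 8.90% in non-lesional libraries, 27.9% and 30.5% in lesional replicates 2 and 11, and 12.1%, 2.44% and 5.80% in lesional replicates 5, 8 and 14. The promoter window of *Ifi44*, chr3:151749861-151750160 in GRCm38.p6 (RefSeq), is shown because the gene had the largest lesional level. It did not hold the exact string searched for above, so lower case is used throughout. Other forms of the element were not searched for.
Ifi44: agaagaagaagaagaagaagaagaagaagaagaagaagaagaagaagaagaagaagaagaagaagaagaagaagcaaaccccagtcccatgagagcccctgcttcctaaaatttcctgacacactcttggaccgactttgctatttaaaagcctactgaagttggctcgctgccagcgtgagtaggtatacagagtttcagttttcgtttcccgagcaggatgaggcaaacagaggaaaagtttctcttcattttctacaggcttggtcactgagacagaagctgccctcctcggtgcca

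*Xaf1* (ENSMUSG00000040483, chr11:72301629-72313733, plus strand) encodes a partner of the caspase inhibitor XIAP that favours cell death. Its levels were 5.41, 4.37, 8.97, 4.22 and 3.38 CPM in the WT libraries, 12.02, 6.38, 6.18, 8.41 and 7.44 CPM in the non-lesional libraries, and 22.6, 7.19, 6.01, 34.3 and 5.35 CPM in the lesional libraries. WT replicate 7 exceeded 4 of the 5 non-lesional libraries, so the groups overlapped. Against WT, the log2 fold change was 0.62 ± 0.31 (SE) in non-lesional and 1.52 ± 0.54 (SE) in lesional skin.

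*Ifi35* (ENSMUSG00000010358, chr11:101448407-101458698, plus strand) encodes a leucine zipper protein that binds NMI. It had the lowest coefficient of variation of the 9 genes within each group, with 9.28, 9.62, 8.52, 5.07 and 6.77 CPM in the WT libraries and 17.4, 11.5, 8.66, 15.6 and 10.5 CPM in the non-lesional libraries. In the lesional libraries it had 19.0, 9.76, 12.01, 31.3 and 15.6 CPM. All 5 lesional libraries lay above all WT libraries, with a smallest gap of 9.76 to 9.62 CPM, and in non-lesional skin replicate 9 lay within the WT range. Its log2 fold change against WT was 0.69 ± 0.26 (SE) in non-lesional and 1.16 ± 0.32 (SE) in lesional skin. The *Ifi35* promoter window was the single member window that held TTCNNNGAA, the core of a gamma-activated site, where N is any base. The match TTCACAGAA lay at positions 8 to 16, reads as a match on either strand, and this core occurred in 8.3% of all promoter windows.

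*Apol7a* (ENSMUSG00000010601, chr15:77388219-77399110, minus strand) encodes a member of the apolipoprotein L family and was distributed differently from the other genes. It had 5.41, 7.87, 3.59, 1.69 and 6.39 CPM in the WT libraries, 25.4, 1.70, 11.96, 26.0 and 27.1 CPM in the non-lesional libraries, and 13.6, 3.08, 15.2, 19.9 and 22.9 CPM in the lesional libraries. In each OTULIN E-KO group 4 of 5 libraries exceeded every WT library, and the exceptions, non-lesional replicate 6 and lesional replicate 5, had only 4 and 6 counts. *Apol7a* was the only gene of the 9 not to peak in lesional replicate 11, and it was the only gene whose lesional mean (14.9 ± 7.58 CPM, SD, n = 5) was below its non-lesional mean (18.4 ± 11.2 CPM, SD, n = 5). Relative to WT, it had a log2 fold change of 1.87 ± 0.59 (SE) in non-lesional and 1.57 ± 0.46 (SE) in lesional skin. In the last 500 bases of its transcripts, 10.7% of stretches of 35 bases also occur in the paralog *Apol7c*, whereas this share was 0% for the other 8 genes. The study counted only reads that mapped uniquely, so reads from such stretches may be missing from its count.

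In WT skin the order of mean levels was *Rsad2* (12.3 ± 5.60 CPM, SD, n = 5), *Ifi35*, *Rtp4*, *Xaf1*, *Apol7a*, *Cmpk2*, *Ifi44*, *Mx1* and *Mx2* (1.09 ± 0.892 CPM, SD, n = 5). The gap between neighbours in this order exceeded the larger of their SDs only between *Ifi35* and *Rtp4* and between *Cmpk2* and *Ifi44*. In lesional skin *Ifi44* (62.0 ± 92.2 CPM, SD, n = 5) came first, followed by *Rsad2* and *Rtp4*, and no neighbours differed by more than the larger SD.

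Across all genes, edgeR's quasi-likelihood test gave an adjusted p under 0.05 in the comparison of non-lesional with WT skin for 0 of 13021 genes (0%), and for none of the 7 member genes that passed the filter. DESeq2's Wald test gave 3 genes, *Rtp4* and also *Ifit1* and *Oasl2*, which were named after their values were seen, and 411 genes had an unadjusted p under 0.05 from edgeR. Values did not overlap, with non-lesional libraries higher, for 0.384% of genes tested, and for *Rtp4* and *Ifi44*. The median log2 fold change of the 7 genes was 0.90, against -0.0027 for all genes tested, and all 7 were positive. Between lesional and WT skin the count was 0 of 12918 genes (0%), none of the 6 member genes tested among them, with 1 gene from DESeq2 (*Stfa3*, a stefin, named after its values were seen) and 621 genes at an unadjusted p under 0.05. Lesional libraries lay wholly above WT for 0.449% of genes, and for *Rtp4* and *Ifi35*. The median log2 fold change of the 6 genes was 1.54, against -0.0034 for all genes. Both comparisons use the same WT libraries, and since the 9 genes were chosen with these differences known, nothing is read from these counts.

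**Figure D2:**
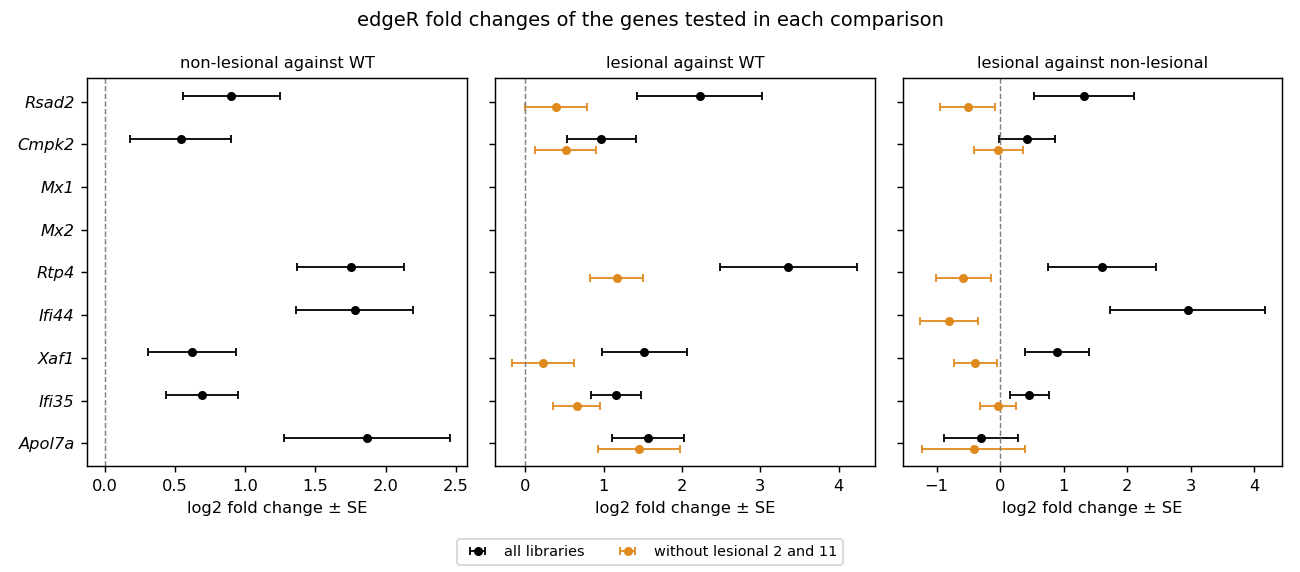
Log2 fold changes ± SE from edgeR for the member genes that passed the filter in each comparison, with all libraries (black) and without lesional replicates 2 and 11 (orange); the zero line is dashed. Without these libraries, the 7 genes tested between lesional and non-lesional skin lay from -0.80 to -0.025, compared with -0.30 to 2.95 with all libraries.

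Lesional and non-lesional skin were also compared directly, and the values of the 9 genes are again a description because the set was chosen with results of these libraries known. With edgeR's quasi-likelihood test, none of 12864 genes had an adjusted p under 0.05 (0%), the 7 member genes tested included. DESeq2 also gave 0 genes, and 543 genes had an unadjusted p under 0.05. The log2 fold change was 2.95 ± 1.22 (SE) for *Ifi44*, 1.60 ± 0.85 for *Rtp4*, 1.31 ± 0.79 for *Rsad2*, 0.90 ± 0.51 for *Xaf1*, 0.46 ± 0.31 for *Ifi35*, 0.42 ± 0.43 for *Cmpk2* and -0.30 ± 0.58 for *Apol7a*. The 9 genes all overlapped between the groups, whereas 0.28% of all genes tested were wholly higher in lesional libraries. A median of 0.90 for the 7 genes stood against 0.0031 for all genes tested.

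The positive differences of *Ifi44*, *Rtp4*, *Rsad2*, *Xaf1* and *Ifi35* rested on lesional replicates 2 and 11, and that of *Cmpk2* on replicate 11 alone, since replicate 2 had the lowest lesional level of this gene (4.53 CPM). The 2 libraries held 95.4% of the lesional CPM of *Ifi44*, 86.8% of *Rtp4*, 82.9% of *Rsad2*, 79.9% of *Mx2*, 75.4% of *Xaf1*, 57.4% of *Ifi35*, 56.3% of *Cmpk2* and 44.9% of *Apol7a*. When both were left out, all 7 genes were lower in lesional than in non-lesional skin, and edgeR again made no call. The log2 fold change was then -0.80 ± 0.46 (SE) for *Ifi44*, -0.58 ± 0.43 for *Rtp4*, -0.51 ± 0.43 for *Rsad2*, -0.39 ± 0.34 for *Xaf1*, -0.41 ± 0.81 for *Apol7a*, -0.033 ± 0.28 for *Ifi35* and -0.025 ± 0.38 for *Cmpk2*. Against WT, the remaining 3 lesional libraries gave 1.44 ± 0.52 (SE) for *Apol7a*, 1.17 ± 0.34 for *Rtp4*, 0.66 ± 0.30 for *Ifi35*, 0.51 ± 0.39 for *Cmpk2*, 0.39 ± 0.40 for *Rsad2* and 0.23 ± 0.39 for *Xaf1*. Leaving out lesional replicate 11 alone gave 2.38 for *Rtp4*, 1.12 for *Rsad2*, 0.98 for *Xaf1* and 0.41 for *Cmpk2* against WT.

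The same 2 libraries carried markers of hyperplastic epidermis and high levels of the calgranulins *S100a8* and *S100a9*. The summed level of 6 genes of hyperplastic epidermis was 10058 and 28406 CPM in lesional replicates 2 and 11, 242 to 421 CPM in the other lesional libraries, 315 to 993 CPM in non-lesional libraries and 276 to 1303 CPM in WT libraries. That of 9 neutrophil genes, of which 2 had 0 counts in every library, was 2985 and 5095 CPM there, 4.003 to 10.7 CPM in the other lesional libraries, 3.40 to 220 CPM in non-lesional libraries and 1.69 to 7.14 CPM in WT libraries. Nearly the whole of this sum in lesional replicates 2 and 11 was *S100a8* (1278 and 2389 CPM) and *S100a9* (1701 and 2686 CPM), which inflamed epidermis also expresses. The neutrophil receptor gene *Cxcr2* had 11 counts in each of the 2 libraries, 0 in every WT library and 0 to 2 in the others. *Retnlg* had 23 counts in lesional replicate 11, 1 in lesional replicate 2 and 0 to 4 in the other libraries. Macrophage markers (10 genes, all detected) summed to 477 to 720 CPM in lesional, 484 to 628 CPM in non-lesional and 373 to 790 CPM in WT libraries. Dendritic and Langerhans cell markers (9 genes, all detected) summed to 190 and 268 CPM in lesional replicates 2 and 11, 70.0 to 106 CPM in the other lesional libraries, 85.3 to 128 CPM in non-lesional libraries and 87.0 to 146 CPM in WT libraries. *Epcam*, which epithelial cells also express, made up 132 and 168 CPM of this sum in lesional replicates 2 and 11, and *Bst2*, itself induced by interferon, 15.8 and 58.7 CPM. The Langerhans cell marker *Cd207* and the dendritic cell factor *Zbtb46* had log2 fold changes of -0.041 ± 0.37 (SE) and -0.047 ± 0.24 in lesional skin against WT. Lesional replicate 11 also had the lowest lesional sums of skeletal muscle markers (2941 CPM, against up to 29341 CPM), fibroblast markers (16266 CPM) and endothelial markers (98.0 CPM). The part of these cell types in the levels of the antiviral genes was not tested.

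Non-lesional replicate 12 had the highest non-lesional sum of the 9 genes (137 CPM), with 2.003 CPM of *Krt6b*, 2.003 CPM of *S100a8*, a neutrophil sum of 4.41 CPM and a hyperplasia sum of 322 CPM, each inside the WT range. Non-lesional replicate 3, with its 220 CPM of *Krt6b*, a neutrophil sum of 220 CPM and a hyperplasia sum of 993 CPM, below the 1303 CPM of WT replicate 1, had a sum of 130 CPM for the 9 genes. Without replicate 3, the log2 fold changes of non-lesional skin against WT were 1.72 ± 0.63 (SE) for *Apol7a*, 1.67 ± 0.41 for *Rtp4*, 1.61 ± 0.44 for *Ifi44*, 0.80 ± 0.37 for *Rsad2*, 0.56 ± 0.27 for *Ifi35*, 0.46 ± 0.39 for *Cmpk2* and 0.43 ± 0.32 for *Xaf1*.

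**Figure D3:**
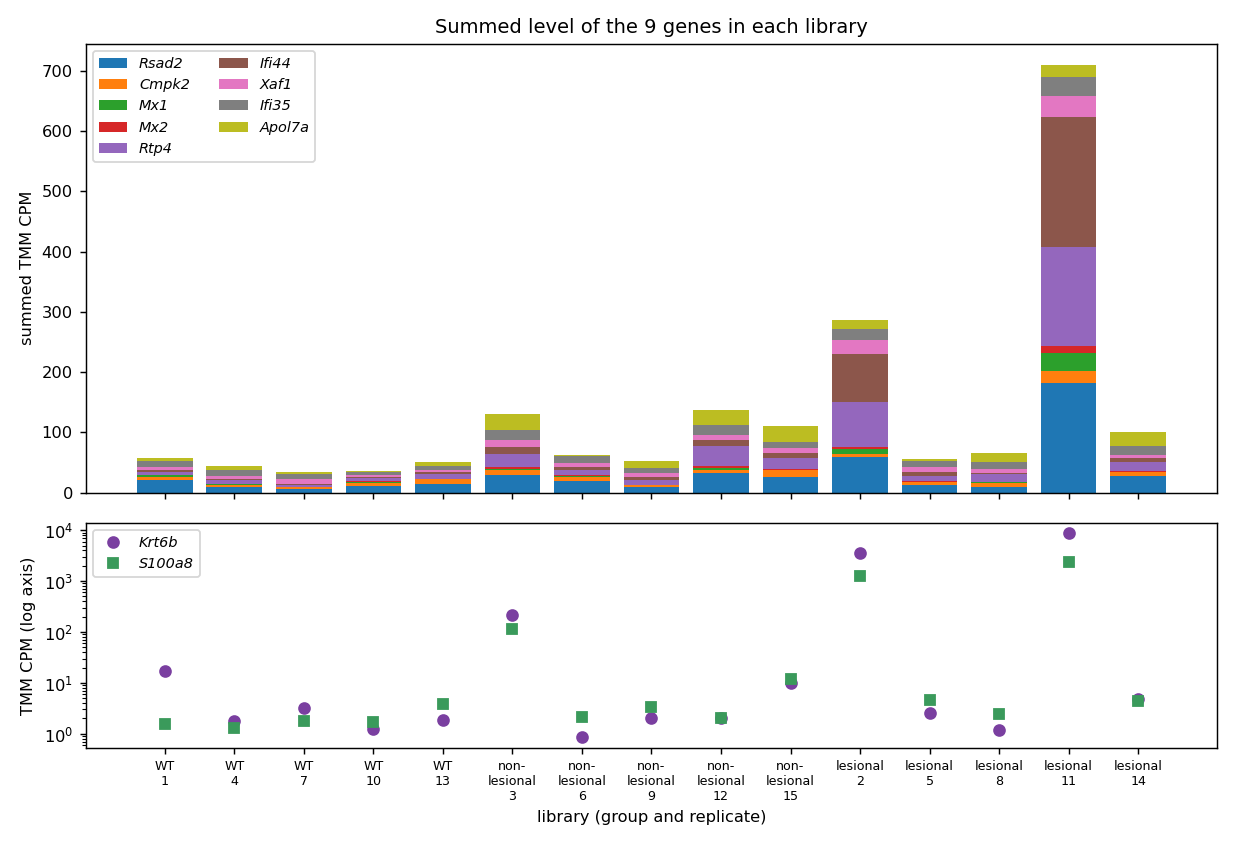
Upper panel, summed TMM CPM of the 9 genes in each library, stacked by gene. Lower panel, TMM CPM of *Krt6b* and *S100a8* in the same libraries on a log axis; lesional replicates 2 and 11 are highest in both panels, whereas non-lesional replicate 12 reaches 137 CPM in the upper panel with 2.003 CPM of each gene in the lower.

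Across the 15 libraries the 9 genes varied together to different degrees. Over their 36 pairs the median Spearman rho was 0.56, 35 pairs were positive, and the lowest value was -0.036 for *Mx1* and *Cmpk2*. Without lesional replicates 2 and 11 the median was 0.46 over 13 libraries. *Rtp4* had the highest mean rho with the other members (0.71), followed by *Ifi35* (0.68), *Ifi44* (0.68) and *Rsad2* (0.67), and *Mx1* and *Cmpk2* the lowest (0.35 each). The libraries share group membership, and the low counts of *Mx1* and *Mx2* limit their values.

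Genes with a mean of at least 5 CPM numbered 12544, members with such a mean included. The non-members among them whose levels ranked the libraries most like the mean of the members included *Dtx3l* (Spearman rho 0.95), *Parp14* (0.90), *Sprr2f* (0.89), *Eif2ak2* (0.88), *Ifi27l2a* (0.87), *Bst2* (0.86) and *Irf9* (0.86). *Dtx3l* encodes a ubiquitin ligase, *Parp14* an ADP-ribosyltransferase, *Eif2ak2* the double-stranded RNA kinase PKR, and *Bst2* tetherin, which holds budding virions at the membrane. *Sprr2f* encodes a small proline-rich protein of the cornified envelope. These genes had rho of 0.79 to 0.93 over 13 libraries, without lesional replicates 2 and 11.

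Interferon genes themselves were at or near 0 in these libraries. Of 20 interferon ligand genes, 17 had 0 counts in all 15 libraries, *Ifnb1*, which encodes interferon beta, among them. A library at 0 allows up to 3 counts, so expression was not detectable at this depth rather than shown to be absent. *Ifnk*, which encodes interferon kappa, had 23 counts in all, in 8 libraries, with at most 9 counts in a library. No ligand gene passed the filter.

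Of 15 genes of interferon receptors and signalling, all were tested and 0 passed in any comparison (edgeR, adjusted p). Against WT, 4 had an unadjusted p under 0.05 and were higher in non-lesional skin, where 1.85% of all genes did, and the same number did in lesional skin, where 3.24% did. They included *Irf9*, a transcription factor of the pathway, which had a log2 fold change of 0.78 ± 0.18 (SE) in non-lesional and 1.21 ± 0.33 (SE) in lesional skin. The receptor chain *Ifngr1* had -0.056 ± 0.12 and -0.061 ± 0.14, and the kinase *Jak1* -0.051 ± 0.097 and 0.12 ± 0.13. The medians of the list were -0.019 in non-lesional and 0.12 in lesional skin.

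Most genes of a list of 50 other antiviral interferon-induced genes also had positive fold changes. In non-lesional skin 32 were tested and 30 had a positive log2 fold change, against 49.4% of all genes, with a median of 0.41, and 15 were higher at an unadjusted p under 0.05, against 1.85% of all genes. In lesional skin 31 of 33 were positive, against 49.5% of all genes, with a median of 1.12, and 24 were higher at this p, against 3.24% of all genes. After adjustment, edgeR called no gene of the list, and DESeq2 called *Ifit1* and *Oasl2* in non-lesional skin. *Ifitm3*, which blocks viral entry at endosomes, had 0.64 ± 0.13 (SE) in non-lesional and 1.11 ± 0.33 (SE) in lesional skin, and *Samhd1*, a dNTP hydrolase, 0.050 ± 0.13 and 0.67 ± 0.29. *Ifi27* had 0.51 ± 0.19 and 0.26 ± 0.22, and *Shisa5* 0.25 ± 0.13 and 0.40 ± 0.20. Between lesional and non-lesional skin, 3 of 35 were higher at an unadjusted p under 0.05, against 2.89% of all genes. These were *Samhd1*, *Parp14* and *Ifitm2*, the last of these named after its values were seen. This list was also written with results of these libraries known, and its values are given beside the members without a test of the list.

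Relatives and binding partners of the 9 proteins had small median differences from WT. Of 21 such genes 8 were tested, with a median log2 fold change of -0.13 in non-lesional and 0.11 in lesional skin against WT. *Xiap*, the partner of XAF1, had 0.00084 ± 0.11 (SE) in non-lesional and 0.078 ± 0.13 (SE) in lesional skin, and the dynamin *Dnm2*, a relative of the Mx proteins, had -0.23 ± 0.14 and 0.14 ± 0.16. The other genes named by abundance, *Dnm1l* and *Birc2*, had -0.16 ± 0.22 and -0.17 ± 0.15 in non-lesional skin. *Nmi*, the partner of IFI35 and named after its values were seen, had 0.40 ± 0.34 in non-lesional and 1.11 ± 0.45 in lesional skin, the only gene of this list at an unadjusted p under 0.05 against WT. Between lesional and non-lesional skin all 8 had positive log2 fold changes, with a median of 0.24, where 50.6% of all genes tested were positive and their median was 0.0031. *Dnm2*, with 0.37 ± 0.17 (SE), was the only one of them at an unadjusted p under 0.05 in that comparison (adjusted p = 0.973, edgeR).

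**Figure D4:**
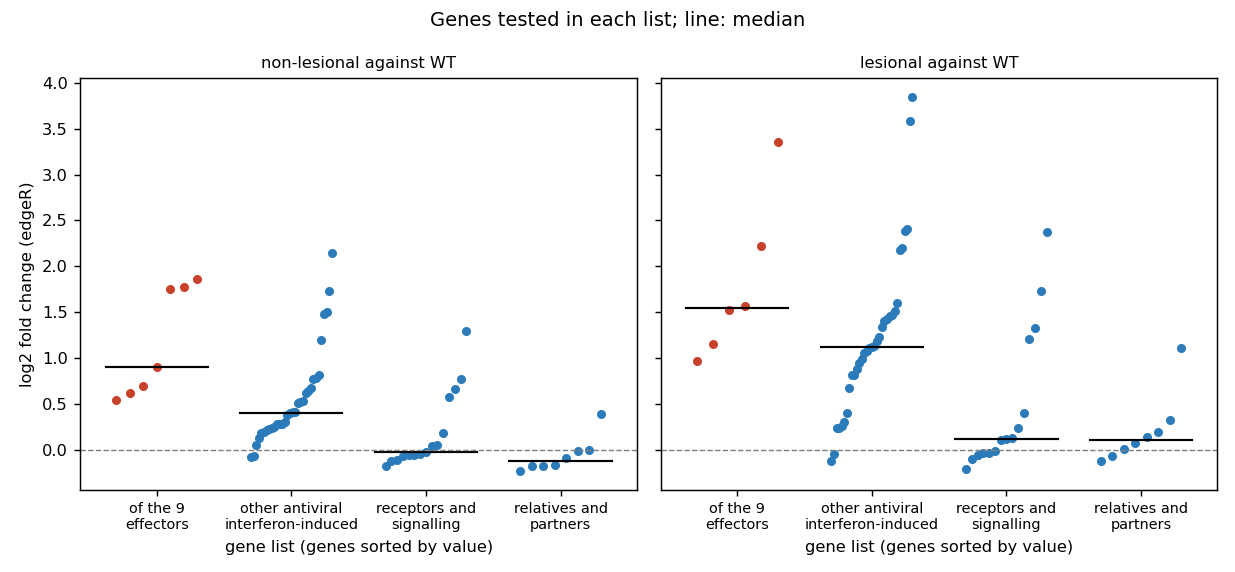
Log2 fold changes from edgeR of the genes tested in 4 lists, each point a gene and each horizontal line the median, for non-lesional (left) and lesional (right) skin against WT. In both panels the 9 antiviral effectors (those tested) and the other antiviral interferon-induced genes lie mostly above 0, and the receptor and signalling genes centre near 0, with *Irf9* among those above.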

How the data were processed

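Skin RNA was profiled in 15 QuantSeq 3′ libraries, 5 per group. The authors clipped adaptors with cutadapt 2.10, removed features specific to QuantSeq, aligned reads to GRCm38 and ERCC sequences with subread-align, filtered alignments with SAMtools 1.7-2 and deposited raw counts per gene over exons from featureCounts 2.0.1. The strand setting and the annotation release are not given in the sources used here. Reads over several genes were counted for each, and PCR copies were not removed. The authors also deposited CPM, each count divided by the total of its library; these were not tested. The 92 spike-in entries summed to 0 and were left out.

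Each comparison used the 2 groups concerned, with counts normalized by TMM, filtered with filterByExpr and fitted with the robust quasi-likelihood test of edgeR 4.0.16 in R 4.3.3, with Benjamini-Hochberg adjustment over all genes tested. Both comparisons with WT follow the study, whose own test (DESeq2) is an alternative here; the direct comparison of lesional with non-lesional skin was added. SE is the absolute log2 fold change over the square root of F. CPM shown per library were scaled with TMM over all 15 libraries, with a prior count of 2 on the log2 scale. Poisson intervals are exact at 95% and, like the floor of 3 counts, cover counting error only.

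The 9 genes and the gene lists were chosen with earlier results of these data known. The text names all 9 genes, at most 4 genes per list with the highest mean CPM among those tested, *Ifnb1*, *Ifnk*, *Otulin*, *Krt6b*, *S100a8* and the 8 genes most like the members by Spearman rho over log2 CPM, except for an item that is not reported here. Positions come from GENCODE M21, in which 55141 of 55487 genes had an entry. Promoter windows come from RefSeq (GRCm38.p6) and matched 6 of the 9 genes; *Mx1*, *Mx2* and *Rtp4* had no window. The alternatives were DESeq2 1.42.0, other normalization factors, limma 3.58.1 voomWithQualityWeights, low counts kept or a minimum of 10 counts in every library, 1 fit of all libraries, no robust estimation, each replicate left out, and lesional replicates 2 and 11 left out together, which differ from the others in *Krt6b*. The script was tested on simulated data in which 200 genes changed.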

Additional observations from a re-analysis of the deposited data

Results flagged for a closer look

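For the level of each of the 9 genes, their sum and the library total in each of the 3 groups, 33 sets of 5 libraries in all, the gap between the extreme library and its nearest neighbour was compared with the range of the set, a criterion that chance meets in about 1 in 20 sets. *Krt6b*, *S100a8* and the marker sums were not examined in this way. It was met 3 times, always by lesional replicate 11. *Rsad2* had 182 CPM there, and 10.01 to 58.8 CPM in the other lesional libraries. *Cmpk2* had 20.4 CPM there, and 4.53 to 6.81 CPM in the others. *Mx2* had 12.9 CPM there from 26 counts, and 0.801 to 4.07 CPM in the others. *Ifi44* and *Rtp4*, with 216 and 163 CPM in this library, did not stand out by the same measure, because lesional replicate 2 was also high.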

How the results depend on the processing

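No paired analysis was run, because the groups share no replicate numbers by which to pair libraries. The numbers run in sequence across the groups, and no source used here says whether consecutive numbers share a mouse, a litter or a batch. For non-lesional against WT, genes at an adjusted p under 0.05 numbered 0 as reported, 3 with DESeq2 (*Ifit1*, *Oasl2* and *Rtp4*) and 18 with no filter on low counts (13 higher, with *Rsad2*, *Rtp4* and *Ifi44* among them). It was 0 to 5 when each replicate was left out in turn, with 5 genes (*Apol7a*, *Ddx60*, *Ifitm3*, *Irf9* and *Oasl2*) without non-lesional replicate 6. For lesional against WT it was 1 gene with DESeq2 (*Stfa3*). Since the 9 genes and the lists were chosen with these differences known, nothing is read from these calls. All 7 genes tested in the first comparison and all 6 in the second kept a positive fold change under every alternative that tested them. Leaving out lesional replicates 2 and 11 lowered the median log2 fold change of the members to 0.58 against WT and to -0.41 against non-lesional skin. In the latter comparison *Rsad2* became -0.51, *Rtp4* -0.58, *Ifi44* -0.80, *Xaf1* -0.39, *Ifi35* -0.033 and *Cmpk2* -0.025. *Rsad2* was -0.083 with limma's voomWithQualityWeights, which gives variable libraries less weight. Against WT in lesional skin this setting gave 0.91 for *Rsad2*, 2.02 for *Rtp4* and a median of 0.87 for the members, compared with 2.23, 3.36 and 1.54 as reported. Between lesional and non-lesional skin, *Cmpk2* ran from -0.14 (without lesional replicate 11) to 0.71 when each replicate was left out. Without lesional replicate 11 the median of the members was 0.22 against non-lesional skin and 1.05 against WT. The causes were not tested. At least 10 counts in every library kept 2, 2 and 5 of the 9 genes in the 3 comparisons.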
